A study of Homo sapiens with 2 samples.

Results

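Chaperonins are double-ring chambers in which newly made proteins fold out of reach of other proteins. The cytosolic chaperonin CCT (also called TRiC) stacks rings of 8 related but different subunits, encoded by TCP1 and by CCT2, CCT3, CCT4, CCT5, CCT6A, CCT7 and CCT8, and is best known for folding actin, tubulin and WD-repeat proteins. The mitochondrial chaperonin is built from HSPD1 (HSP60), which forms the chamber, and HSPE1 (HSP10), which forms its lid, and folds proteins imported into the matrix. All array features that the annotation names for exactly 1 of these 10 genes were taken. They came to 13 probe sets for 9 genes, out of 22283 probe sets on the array, of which 19071 carry 1 gene symbol. The 3 probe sets naming TCP1 also name a small nucleolar RNA gene, so TCP1 has no value here and 7 of the 8 CCT subunits are described.

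The series compares K-ras H6c7, made by bringing a K-ras oncogene into H6c7 cells, with parental H6c7, a near-normal line of human pancreatic duct epithelium. Papillomavirus genes were used to immortalise the parental line. The oncogene-carrying cells therefore share that immortalised background with their parent. Whether they were a clone or a pool, and how the oncogene was delivered, is not stated in the labels, and no vector control is named. Total RNA from each line was hybridised to 1 Affymetrix U133A array, so no difference could be tested. Precision is limited throughout by the number of arrays.

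Signals are array intensities on a linear scale, and the median over non-control probe sets was 46.9 on the K-ras array and 43.9 on the parental array. A floor was set at a signal of 46.9, the higher of these medians, and the 7693 genes at or above it on at least 1 array were counted as measured. The log2 ratio is that of the K-ras signal over the parental signal, and its median over the measured genes was 0.10. HRAS had a signal of 799 in K-ras H6c7 and 484 in parental H6c7. Of 12 pancreatic duct markers, 7 were above the floor on each array, while CFTR, SPP1 and CLDN4 were below it on both. The duct keratin KRT19 had a signal of 1644 in K-ras cells and 4511 in parental cells, a log2 ratio of -1.46. Other keratins of duct cells went both ways, with a log2 ratio of 0.88 for KRT8, 0.38 for KRT18 and -0.32 for KRT7. Outside the keratins, EPCAM had a log2 ratio of -1.06, while CA2 and MUC1 gave bounds of -2.51 and 0.31. SOX9 had -1.03, but its second probe set gave 0.04. The median of the 8 measured duct markers was -0.68. Past 2-fold on the lower side were 4 of these markers, KRT19 among them, and no duct marker passed 2-fold on the higher side. Islet markers INS, GCG, SST and CHGA lay under the floor on each array. Of the markers of other cell types, KRT5 and KRT14 of squamous and basal epithelium were bright on both arrays. Their signals were 9397 and 10134 in K-ras cells and 5960 and 6237 in parental cells, log2 ratios of 0.66 and 0.70. COL1A1 and DCN of fibroblasts were also above the floor on both arrays. Their signals were 94.6 and 84.3 in K-ras cells and 130.8 and 59.1 in parental cells. CD3E of leukocytes, PECAM1 of endothelium, COL1A2 of fibroblasts and CELA3A of the acinus were above the floor in K-ras cells alone. Their signals there were 78.2, 80.6, 51.4 and 56.3. Under the floor on both arrays were PTPRC, CD14 and LYZ of leukocytes and CDH5, VWF and KDR of endothelium. So were COL3A1, LUM and PDGFRB of fibroblasts and CPA1, CEL and PNLIP of the acinus. The part of such cells in the results was not tested.

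Chaperonin transcripts were lower in the K-ras line for nearly every subunit, in the cytosol and in mitochondria alike, with CCT7 as the clearest exception. Of the 9 genes, 7 were at least 2-fold lower in K-ras H6c7 and none was at least 2-fold higher. Among all measured genes, 14.4% were at least 2-fold lower and 9.97% at least 2-fold higher. All 9 chaperonin genes lie in the top 25% of measured genes by mean log2 signal, where the shares were 12.7% lower and 11.9% higher. All 9 ratios were below 0, as were those of 44.8% of measured genes. The 7 measured CCT subunits had a median log2 ratio of -1.33, a 2.52-fold lower level in K-ras cells. As each array measured RNA of a whole culture, less transcript per cell and fewer cells with a high level cannot be told apart.

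**Figure D1:**
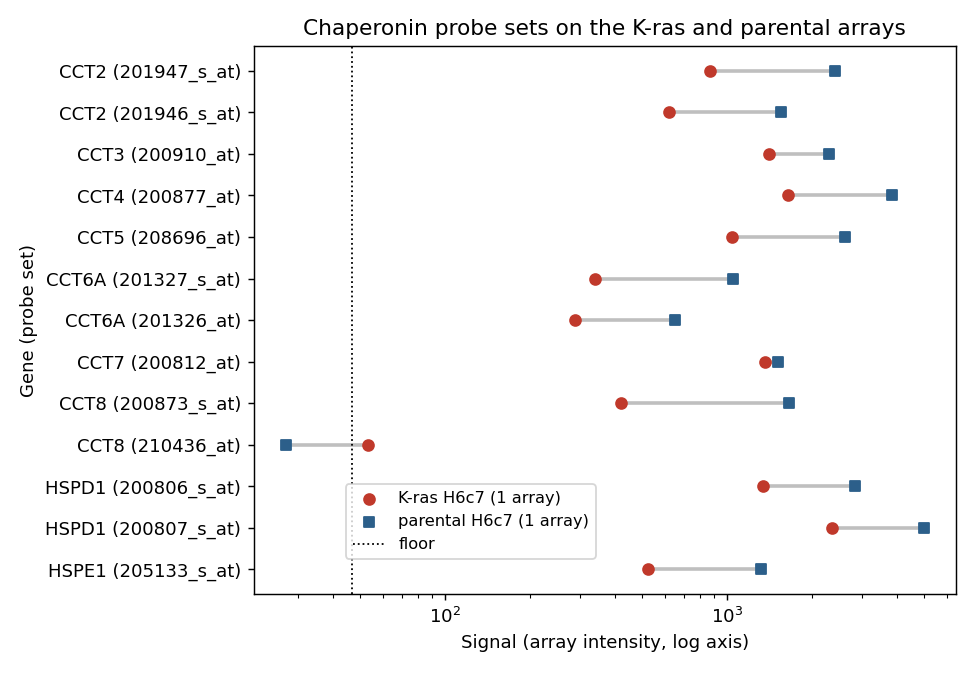
Signal of each chaperonin probe set (log axis, array intensity) on the K-ras array (circles) and the parental array (squares), with the floor of 46.9 as a dotted line. In 12 of 13 probe sets the K-ras signal lies below the parental signal; in the dim second probe set of CCT8 it lies above.

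The ratios of the CCT subunits covered a wide range. CCT8, the theta subunit, had the lowest ratio of the complex. Its signal was 418.9 in K-ras H6c7 and 1654.6 in parental H6c7, a log2 ratio of -1.98 or 3.95-fold lower. Only 3.21% of measured genes had a lower ratio. A second CCT8 probe set gave a signal of 53.3 in K-ras cells and 27.2 in parental cells, which lies just above the floor in K-ras cells and below it in parental cells. It gives only a bound, at least 1.14-fold higher. That dim feature and the bright one thus point in opposite directions for the same gene, and the ratio of CCT8 rests on the bright one.

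CCT6A, the zeta subunit, had signals of 338.6 in K-ras cells and 1047.4 in parental cells, a log2 ratio of -1.63. Its second probe set gave 289.7 in K-ras cells and 653.4 in parental cells, a log2 ratio of -1.17. Both lay past 2-fold. CCT2, the beta subunit, had signals of 870.2 in K-ras cells and 2413.5 in parental cells, 2.77-fold lower, and a second probe set gave 620.0 in K-ras cells and 1550.9 in parental cells, or log2 ratios of -1.47 and -1.32. For this subunit the probe sets differed by 0.15 on the log2 scale.

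CCT5, the epsilon subunit, had a signal of 1041.6 in K-ras cells and 2621.3 in parental cells, a log2 ratio of -1.33. CCT4, the delta subunit, had 1638.4 in K-ras cells and 3840.7 in parental cells, a log2 ratio of -1.23. Each rests on 1 probe set, and both lay past 2-fold. The remaining subunits did not. CCT3, the gamma subunit, had a signal of 1404.1 in K-ras cells and 2295.7 in parental cells, a log2 ratio of -0.71. CCT7, the eta subunit, had 1359.8 in K-ras cells and 1511.8 in parental cells, a log2 ratio of -0.15 or 1.11-fold lower. That places CCT7 in the body of the distribution, with 38.2% of measured genes below it. When the arrays were scaled on maintenance probe sets the ratio of CCT7 changed sign, to 0.043.

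**Figure D2:**
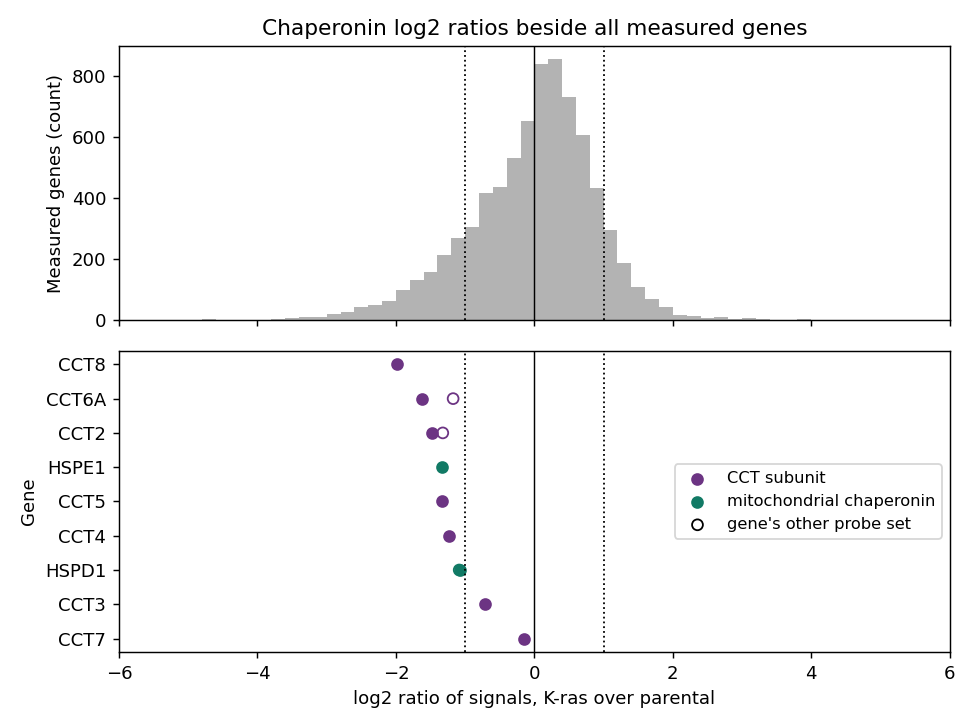
Upper panel, number of measured genes by log2 ratio of signals (K-ras over parental). Lower panel, the log2 ratio of each chaperonin gene (filled points) and of any further probe set with both signals above the floor (open points); dotted lines mark 2-fold. CCT subunits run from -1.98 for CCT8 to -0.15 for CCT7, and HSPD1 and HSPE1 lie at -1.08 and -1.34.

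Subunits of 1 complex could differ on these arrays by measurement error alone, and the only repeat available to judge this comes from genes with several probe sets. It is technical and leaves out differences between cultures. Over 1670 such genes, log2 ratios within a gene had a pooled standard deviation of 0.46, which gives 0.65 for a difference between 2 genes. These genes cover all signal levels above the floor, whereas the chaperonin genes are bright, and the spread of bright genes alone was not computed. Where both signals of each probe set were above the floor, the probe sets of CCT2, CCT6A and HSPD1 differed by 0.15, 0.46 and 0.0053. In the order CCT8, CCT6A, CCT2, CCT5, CCT4, CCT3, CCT7, all 6 steps between neighbours were under 0.65, between 0.10 and 0.56. The subunits were sorted by ratio first, which makes such steps small, so the steps do not show that subunits are alike. The ends of the order lay 1.83 apart, a 3.55-fold difference in ratio. CCT7 lay 1.25 above the median of the other measured subunits, CCT3 lay 0.69 above it, and CCT8 had a difference of -0.70. With 1 array per line these differences have no test.

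In K-ras cells both mitochondrial chaperonin genes were also past 2-fold on the lower side. HSPD1 had a signal of 2351.6 in K-ras H6c7 and 4972.6 in parental H6c7, a log2 ratio of -1.08. Its second probe set gave 1337.1 in K-ras cells and 2837.8 in parental cells, a log2 ratio of -1.09. The probe sets of HSPD1 were thus nearly identical in ratio. HSPE1 had a signal of 522.3 in K-ras cells and 1318.3 in parental cells, a log2 ratio of -1.34, in its single probe set. The difference of HSPD1 minus HSPE1 was 0.26, within the spread of 0.65. HSPD1 lies close to the 2-fold threshold and did not pass it when the arrays were scaled on maintenance probe sets, where its log2 ratio was -0.88. The reference lists 22 pseudogenes named for HSPD1 and 28 named for HSPE1, against 0 to 2 for each measured CCT subunit. Only names made of the full gene symbol, the letter P and a number were counted. Pseudogenes named otherwise are missed, so the CCT counts may be too low. Whether pseudogene transcripts reach these probe sets was not tested.

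HSPD1 and HSPE1 are neighbours on chromosome 2 and are read away from each other, so that a short stretch holds the upstream side of both. The sequences are from RefSeq (GRCh38.p14), and promoter windows of 250 bases before to 50 bases after a start were matched for 9 of the 10 genes, in 12 windows because some genes have several starts. The 104 bases between the outermost HSPD1 start and the HSPE1 start, at chr2:197500275-197500378, are shown on the strand of HSPE1 because both genes moved together. Capitals mark an E-box (CACGTG), the sequence bound by MYC and related factors, which begins 22 bases before the HSPE1 start.
HSPD1-HSPE1 interval: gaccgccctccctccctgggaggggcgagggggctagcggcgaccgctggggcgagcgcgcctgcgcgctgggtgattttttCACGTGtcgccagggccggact
This stretch is 74.0% G and C, contains 13 CpG sites and holds no heat shock element. On both strands, an E-box was present in 7.26% of 35116 promoter windows of this length, and in the windows of HSPD1 and HSPE1 it is the same site counted from either gene.

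Heat shock elements, which are bound by heat shock factors, were searched on both strands as TTCNNGAA and as GAANNTTC, which can overlap. They were present in 7.74% and 6.77% of all windows, and in 2 and 3 of the 12 chaperonin windows. HSPD1 has a chain of overlapping elements, in a stretch that begins 184 bases inside the gene from its outermost start and 250 bases before a second start, at chr2:197500063-197500090 on the minus strand. CCT2 has an element inside the gene from its outermost start but before a second start, at chr12:69585792-69585815 on the plus strand. CCT4 has an element inside the gene at chr2:61888607-61888630 on the minus strand. Capitals mark the matched letters.
HSPD1 element: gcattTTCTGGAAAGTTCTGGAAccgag
CCT2 element: ggagcgaaGAAATTTCtagtgtgg
CCT4 element: gccggcgccgctTTCTGGAAggtt
The matches are letters only, and no binding was measured. TCP1, which has no value here, held the other match.

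The ends of the CCT order are shown by the 100 bases before the start of CCT8 (chr21:29073649-29073748, minus strand) and of CCT7 (chr2:73234208-73234307, plus strand). Capitals mark a CCAAT box read on either strand (CCAAT), which was present in 34.6% of all windows and in 4 of the 12 chaperonin windows.
CCT8 upstream: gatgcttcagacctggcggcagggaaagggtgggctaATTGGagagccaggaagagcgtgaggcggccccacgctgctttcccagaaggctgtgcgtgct
CCT7 upstream: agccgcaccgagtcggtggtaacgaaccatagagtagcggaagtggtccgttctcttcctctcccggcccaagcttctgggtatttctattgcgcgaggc
Neither stretch holds a heat shock element or an E-box. The composite site of ATF4 and C/EBP factors (TGATGNAA), present in 3.62% of all windows, was in none of the 12 chaperonin windows. A GC box (GGGCGG), bound by SP1 and related factors, was in 9 of them, from 7 of the 9 matched genes. It was present in 45.0% of all windows. The GC box between HSPD1 and HSPE1 is the same site counted from either gene. An ETS site (CCGGAAG) was in 1 of the chaperonin windows and in 10.3% of all windows.

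Proteins that work with CCT had ratios on both sides of 0. Prefoldin hands unfolded actin and tubulin to CCT, and 1 of its 5 measured subunits was at least 2-fold lower, with a list median of 0.14. That subunit was VBP1, with a signal of 685 in K-ras cells and 1949 in parental cells, a log2 ratio of -1.51. PFDN2, PFDN1 and PFDN5 had log2 ratios of 0.58, 0.45 and -0.15. In the prefoldin-like complex with its RUVBL helicases and partners, 2 of 6 were at least 2-fold lower (median -0.32). RPAP3 was below the floor in K-ras cells with a bound of -1.41, RUVBL1 had -1.01, UXT 0.46 and RUVBL2 -0.42.

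Of 2 measured CCT cofactors, TXNDC9, a phosducin-like regulator that binds CCT, had a signal of 118 in K-ras cells and 883 in parental cells. Its log2 ratio was -2.91, with -2.25 in a second probe set. The other cofactor, PDCL, which assists folding of G protein beta subunits, had -0.57. Among proteins related to CCT in sequence, MKKS had a log2 ratio of -1.53, and CCT6B, a paralogue of CCT6A, gave a bound of 0.41. TXNDC9 thus had a lower ratio than each of the 9 measured chaperonin genes.

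The folding clients of CCT were mostly within 2-fold. In the actin and tubulin list (median -0.39), none of 14 measured genes was at least 2-fold higher and 1 was lower. That gene was TUBA1A, an alpha tubulin, with a bound of -1.07. TUBG1, TUBA4A and ACTR3 had log2 ratios of -0.86, -0.86 and -0.67. Other probe sets of ACTR3 gave -1.32 and -0.96, and those of TUBB (-0.61) gave -1.53 and -0.56, so a different probe set would add to the count. ACTB had a signal of 11452 in K-ras cells and 11480 in parental cells, a log2 ratio of -0.0036. Tubulin genes of the same class are close in sequence, and their single values are uncertain. Of 12 measured WD-repeat and other clients, 1 was at least 2-fold lower (the mitotic kinase PLK1, -1.52) and 1 higher (the phosphatase scaffold PPP2R1A, 1.05), with GNB2 and GNB5 at 0.74 and 0.66 and a median of 0.22. Other probe sets of GNB5 lay between -0.50 and 0.64. Among 6 tubulin folding cofactors 1 was at least 2-fold higher and none lower (median 0.21). It was ARL2 (1.15), and TBCE, TBCC and TBCB had -0.74, 0.49 and 0.38, with 0.054 in a second probe set of TBCE.

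The mitochondrial HSP70 system, which passes imported proteins to HSPD1 and HSPE1, had ratios mostly on the other side of 0. None of 6 measured genes was at least 2-fold lower and 1 was higher, with a median of 0.47. TIMM44, which tethers the matrix HSP70 to the import channel, had a signal of 574 in K-ras cells and 181 in parental cells, a log2 ratio of 1.67. PAM16, which regulates that motor, had 0.96, the matrix HSP90 TRAP1 had 0.65 and the matrix HSP70 HSPA9 had 0.30. DNAJA3, its J-domain partner, was below 0, at -0.28. HSPD1 and HSPE1 lay below all 6 of these ratios.

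In mitochondrial import and processing the median of 17 measured genes was 0.12, with none at least 2-fold higher and 2 lower. PMPCB, a subunit of the protease that removes import signals, had a log2 ratio of -1.64. TOMM20, an import receptor, had -1.05, with 0.43 in a second probe set, and TIMM17A and TOMM70 had -0.91 and -0.64, with -1.09 in a second probe set of TOMM70. Of 6 mitochondrial proteases 1 was higher and 1 lower (median 0.50). The matrix protease LONP1 had a log2 ratio of 1.11. YME1L1 of the inner membrane had -1.10, with other probe sets up to 0.07, and CLPX and CLPP, partners in a matrix protease, had -0.89 and 0.67.

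The list of heat shock factors and cytosolic heat shock genes had a median of -0.78 over 12 measured genes, with 1 at least 2-fold higher and 5 lower. HSP90AA1, HSPH1, DNAJA1 and CHORDC1 had log2 ratios of -4.75, -3.10, -2.97 and -2.46, of which those of HSPH1 and CHORDC1 are bounds. HSP90AB1, also counted as lower at -1.23, had -0.98 in a second probe set. STIP1 (-0.64) and HSPA4 (-0.45) were not counted, but other probe sets gave -1.21 for STIP1 and down to -1.18 for HSPA4. The count thus depends on the probe set chosen. HSF1, which encodes the main heat shock factor, was the member on the higher side, with a signal of 125 in K-ras cells and 49.3 in parental cells, a log2 ratio of 1.35. The parental value of HSF1 is just above the floor. Over the 11 related lists together, 88 of 115 genes were measured, of which 17.0% were at least 2-fold lower and 5.68% at least 2-fold higher, beside 14.4% and 9.97% of all measured genes.

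**Figure D3:**
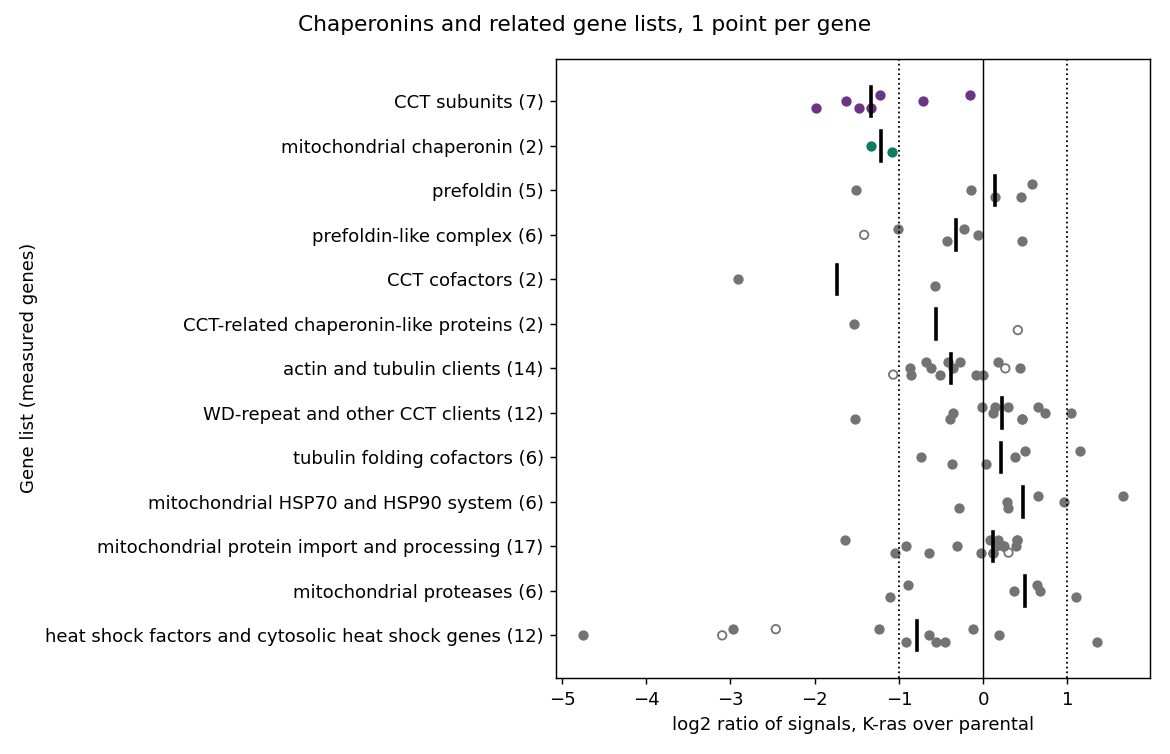
log2 ratio of signals (K-ras over parental) of each measured gene in the chaperonin complexes and in 11 related lists, with the number of measured genes in parentheses, list medians as bars, bounds as open points and 2-fold as dotted lines. The CCT subunits have a median of -1.33, prefoldin 0.14, the mitochondrial HSP70 and HSP90 system 0.47 and the heat shock list -0.78.

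The non-member genes with signals most like HSPD1 on both arrays were FST, PTMA, LDHB, HSP90AB1 and NPM1, at Euclidean distances of 0.21 to 0.37 in log2 signal. This likeness covers 2 arrays only. The chaperonin genes lie on 6 chromosomes, and only HSPD1 and HSPE1 are neighbours. The median log2 ratio of the 20 nearest measured genes was between -0.75 (around CCT2) and 0.48 (around CCT3). Each chaperonin gene was lower than its neighbourhood, by the least for HSPD1 (a difference of -0.43) and by the most for CCT6A (-1.96). The neighbourhoods of CCT2, HSPD1 and CCT8 were themselves on the lower side, at -0.75, -0.65 and -0.57, and their part in those genes' ratios was not tested.

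Other ways of processing the arrays left most of these values in place, but several of them could hardly do otherwise. The deposited columns already shared a trimmed mean. Moving or removing the floor left each chaperonin ratio unchanged, because the signals used lie above it. Median centring and scaling on maintenance probe sets each shifted all chaperonin ratios by the same amount. CCT2, CCT4, CCT5, CCT6A and HSPE1 were at least 2-fold lower under each alternative setting that measured them, and CCT3 and CCT7 under none. CCT8 changed sign, to the bound of 0.18 given by its dim probe set, when probe sets ending in _s_at or _x_at were left out. These are the ones that match several transcripts, which may be variants of the same gene. That setting also leaves CCT2, HSPD1 and HSPE1 with no probe set.

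**Figure D4:**
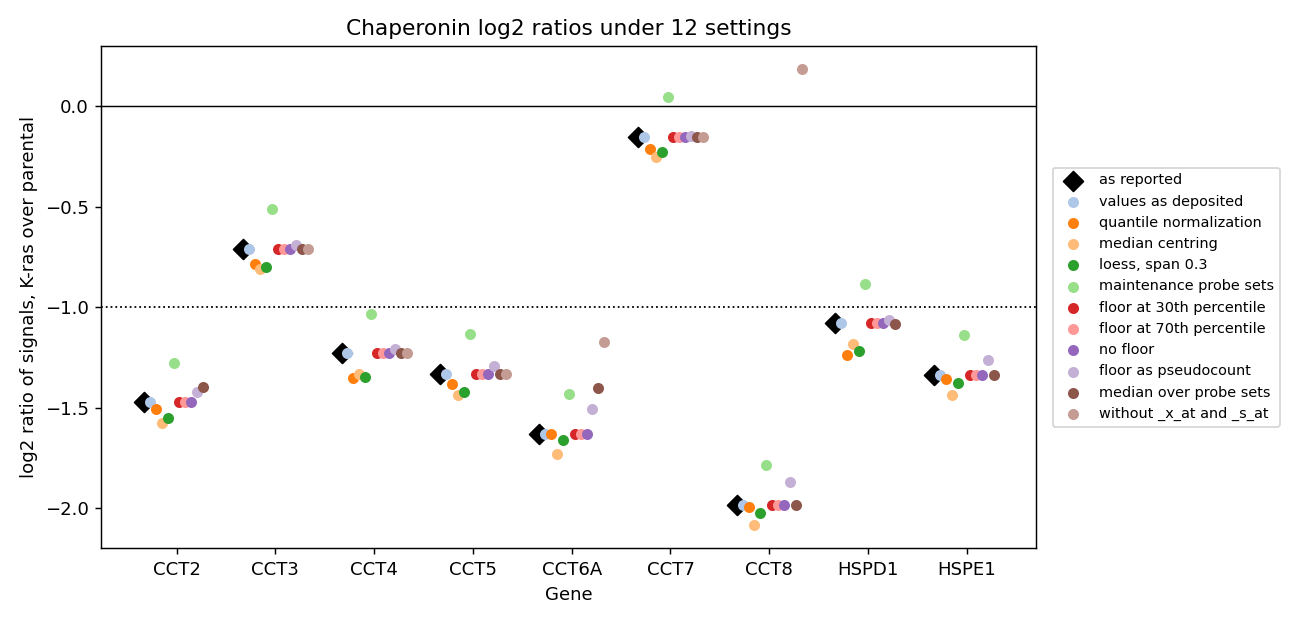
log2 ratio of signals (K-ras over parental) of each chaperonin gene as reported (diamonds) and under 11 alternative settings (points), with 2-fold as a dotted line. CCT7 lies near 0 throughout, and CCT8 is at -1.79 or lower except without _x_at and _s_at probe sets, where it is 0.18.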

How the data were processed

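RNA of 1 culture of K-ras H6c7 and 1 of parental H6c7 was measured on U133A arrays, with cRNA made by the manufacturer's procedure, per the labels. The authors deposited 1 linear signal intensity per probe set and array; which software made them is not stated in the labels. The trimmed mean, leaving out the lowest and highest 2% of probe sets, was 150.06 in both deposited columns, so the intensities were taken as scaled by the authors, and the columns were set to the same trimmed mean.

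Genes were named from the array annotation, and 19059 of 19071 probe sets with 1 symbol were matched to GRCh38.p14. A gene with several probe sets is represented by that with the highest mean of its log2 signals. A signal below the floor of 46.9 on 1 array gives a bound against the floor. A ratio of at least 2-fold was counted. With 1 array per group there is no p-value. The members and lists were chosen with earlier results of these data known. Named genes are all members with every probe set, up to 4 genes of each related list with the largest ratios, HRAS, and the 5 genes nearest to HSPD1; other genes were named after their values were seen. The procedure was tested on simulated arrays. Values were computed with pandas 2.3.3 and numpy 2.4.6 under Python 3.11.15, trimmed means with scipy 1.17.1, loess with statsmodels 0.14.6 and plots with matplotlib 3.10.9.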

Additional observations from a re-analysis of the deposited data

How the results depend on the processing

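No paired analysis was possible because each group holds 1 array. The 11 alternative settings and 2 other fold thresholds gave 266 values. Of these, 254 stayed within the spread between probe sets (counts and shares within 1.5 times), 8 moved further and 4 changed sign. Many of the 254 could hardly differ, as the deposited columns were already scaled alike and the floor does not reach bright genes. The shares at 1.5-fold and 3-fold change by definition. The count of chaperonin genes at least 2-fold lower, 7 as reported, was 3 of 6 measured without _x_at and _s_at probe sets, and 2 at a 3-fold threshold. The share of all measured genes that were higher was 20.3% with no floor, 6.10% with the floor as a pseudocount, 24.0% at 1.5-fold and 2.40% at 3-fold, and the share that were lower was 24.2% at 1.5-fold and 6.24% at 3-fold. Scaling on 100 maintenance probe sets shifted the median over genes with both signals above the floor by 0.16 (log2), to 11.1% lower and 14.4% higher, and CCT7 then changed sign, to 0.043. With no floor the shares were 15.0% lower and 20.3% higher. With the floor at the 30th percentile they were 14.4% lower and 13.9% higher. Median centring gave 16.5% lower and 7.72% higher. Without _x_at and _s_at probe sets CCT8 had 0.18, and the medians of the lists of WD-repeat and other clients and of mitochondrial proteases were -0.14 and -0.040. The cause of these changes was not tested beyond the smaller set of probe sets. Signals near the floor limit the values of HSF1 and of the second probe set of CCT8.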

Other observations

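The gene next to CCT6A on chromosome 7 is PSPH, which encodes the last enzyme of serine synthesis. Its probe sets gave log2 ratios of 0.82 and 1.13 (K-ras over parental), while those of CCT6A were -1.63 and -1.17. The gene next to CCT8 on chromosome 21, the deubiquitinase gene USP16, was below the floor in K-ras cells, with a bound of -1.97 on a probe set that can pick up related transcripts. COQ10B, the nearest measured gene on the HSPD1 side of the HSPD1-HSPE1 pair, had a log2 ratio of 0.19. These neighbours were chosen after their values were seen.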
